A study of Mus musculus with 12 samples.

Results

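Small nucleolar RNAs (snoRNAs) and small Cajal body RNAs (scaRNAs) are represented here by the 107 gene areas, of 37752 in the table, whose symbol starts with Snord, Snora or Scarna. The symbols gave 72 box C/D genes (Snord), 26 box H/ACA genes (Snora) and 9 Cajal body RNA genes (Scarna). The rule used the symbols and no measured value, but earlier results of these data were known when the members were chosen. Their areas ran from 28 to 6161 bases with a median of 81 bases, and the areas of 105 were as long as the RNA in RefSeq. The exceptions were Snord123, whose area spans 6161 bases, and Snord92, at 71 bases.

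The assay was DNA immunoprecipitation followed by sequencing: genomic DNA is broken by sonication, made single-stranded and captured with an antibody. The groups were Th1, Th2, iTreg, Th17 and naive T cells of the mouse, each with 1 library for 5-hydroxymethylcytosine (5hmC) and 1 for 5-methylcytosine (5mC). Th17 cells also gave 1 IgG library and 1 input library without antibody. The series describes CD2(Cre)Tet2(f/f) mice and wild-type littermates on a mixed background. CD2-driven Cre acts in lymphocytes in general, and the genotype, age and number of animals behind a library are not given in the labels. Tet2 is one of the enzymes that oxidise 5mC to 5hmC.

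Most snoRNAs of mammals are cut out of introns after the host transcript is spliced, and many of the hosts encode ribosomal proteins or factors that build ribosomes. Box C/D RNAs guide 2′-O-methylation and box H/ACA RNAs guide pseudouridylation, mostly of ribosomal RNA, while scaRNAs guide the same changes in spliceosomal RNAs. A few box C/D and H/ACA RNAs (the U8, U14, U17 and U22 RNAs) act in the cutting of the ribosomal RNA precursor instead.

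A host was taken as the shortest other gene area on the same strand that covered the whole member and was at least 2 times as long. In this way 99 members had a host and 8 had none, over 78 host areas, of which 17 held more than 1 member. Rpl13a, a protein of the large ribosomal subunit, held 4 (Snord32a, Snord33, Snord34 and Snord35a). The non-coding genes 2410006H16Rik and 1810032O08Rik (Snhg16 in RefSeq) held 3 each. Ribosomal protein genes hosted 27 members, other translation and ribosome assembly genes 19, and Snhg genes and Gas5 13. The RNAs of a host share its DNA and are not independent of one another.

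Both antibodies target modified cytosines, which in mammals lie mostly in CpG, so the host promoters are shown by their CpG content. RefSeq promoter windows (GRCm38.p6, 250 bases before to 50 after the transcript start) were found for 60 of 77 host gene IDs, as 63 windows. The host windows held a median of 23 CpG, from 1 to 47, against 7 in all 32851 windows. Their median GC share was 61.3%, against 52.7% in all windows. Eef2, host of Snord37, and Rpl13a, which holds the most members, are printed 5′ to 3′ with each CpG in capitals. The Eef2 window (chr10:81176381-81176680, plus strand) holds 34 CpG and the Rpl13a window (chr7:45128696-45128995, minus strand) holds 27.
Eef2: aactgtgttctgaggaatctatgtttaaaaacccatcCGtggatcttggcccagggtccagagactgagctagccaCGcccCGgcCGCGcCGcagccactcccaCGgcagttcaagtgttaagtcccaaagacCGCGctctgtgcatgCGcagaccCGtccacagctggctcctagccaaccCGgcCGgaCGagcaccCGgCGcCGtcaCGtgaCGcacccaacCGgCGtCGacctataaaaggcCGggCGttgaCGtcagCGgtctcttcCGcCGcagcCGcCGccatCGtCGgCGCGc
Rpl13a: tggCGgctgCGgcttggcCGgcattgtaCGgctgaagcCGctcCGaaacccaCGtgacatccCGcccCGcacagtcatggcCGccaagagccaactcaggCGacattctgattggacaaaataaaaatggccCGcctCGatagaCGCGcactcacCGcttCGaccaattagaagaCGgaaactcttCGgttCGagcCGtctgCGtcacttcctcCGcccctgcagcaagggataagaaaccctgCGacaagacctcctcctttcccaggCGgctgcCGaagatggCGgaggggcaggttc

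Transcripts of many snoRNA hosts begin with a C followed by a pyrimidine run, the 5′ terminal oligopyrimidine start. A C at the first transcribed base followed by at least 4 further C or T on the transcribed strand was present in 6 of 63 host windows (9.52%) and in 2.51% of all windows. None of the 14 ribosomal protein host windows had it at exactly the annotated base. Gas5, Snhg7 and Snhg8, non-coding genes known mainly as snoRNA hosts, had it and are printed from 20 bases before the start to 30 after, with the run in capitals. Another Gas5 window, at chr1:161034351-161034650, did not have it. The stretches lie at chr1:161035146-161035195 (plus strand), chr2:26640215-26640264 (minus strand) and chr3:123508307-123508356 (minus strand) on the same build.
Gas5: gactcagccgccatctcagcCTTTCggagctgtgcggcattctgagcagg
Snhg7: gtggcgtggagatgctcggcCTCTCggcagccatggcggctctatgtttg
Snhg8: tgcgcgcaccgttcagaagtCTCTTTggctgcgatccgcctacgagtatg

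Values are the signal per gene area as deposited, and coordinates of members are those of the table on mm9, whose count from 0 or 1 is not stated. Their depth is unknown, so no counting interval can be given, and with 1 library per group a difference between cell types has no replicate check. One label is in doubt: the 5hmC signal at Il17a and Il17f, the cytokine genes that define Th17 cells, was 31.3 and 32.8 in the library labelled iTreg, against 8.8 and 5.3 in the library labelled Th17. Foxp3, which defines regulatory T cells, had 25.3 in the library labelled iTreg and 30.9 in the library labelled Th17. Both names are used below as the labels give them. The IgG library had a median of 0.3 at members and 0.8 at all gene areas, and the input 1.5 and 1.7.

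By median, 5hmC at the members was above that of all gene areas in the naive library, level with it in Th2 and below it in Th1, iTreg and Th17. Their median 5hmC was 10.2 in Th1, 11 in Th2, 7.5 in iTreg, 6 in Th17 and 18 in naive cells, against 10.8, 11, 11, 9.9 and 12 over all gene areas in the same order. MicroRNA gene areas, which are as short (median 83.5 bases), had medians of 6 in Th1, 6 in Th2, 6.45 in iTreg, 5.25 in Th17 and 6.45 in naive cells. The members' median lay above that of microRNA genes in each of the 5 libraries, by least in Th17 and by most in naive cells.

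By class, the box C/D median was 10.25 in Th1, 11 in Th2, 8.2 in iTreg, 5.9 in Th17 and 17.5 in naive cells. The box H/ACA median was 10.45, 9.95, 7, 6.05 and 19.05 in the same libraries. Both classes were highest in naive and lowest in Th17 cells. The 9 Cajal body RNA genes had a median of 6.4 in Th1, 11.8 in Th2, 7.1 in iTreg, 4.9 in Th17 and 9 in naive cells, so that Th2 and not naive was highest. Among them Scarna13 had 6.5 in Th1, 36.1 in Th2, 31.3 in iTreg, 4.4 in Th17 and 14.7 in naive cells, high in Th2 and iTreg. Scarna10 had 13, 6.7, 3, 7.4 and 18 and Scarna3b 5.4, 11.8, 5.5, 3.3 and 9. Scarna3a and Scarna8 stayed at 7.7 or less in every library. The classes overlapped widely: in naive cells the range between the quartiles of box C/D genes ran from 9.35 to 32.9 and that of Cajal body RNA genes from 4 to 18.

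**Figure D1:**
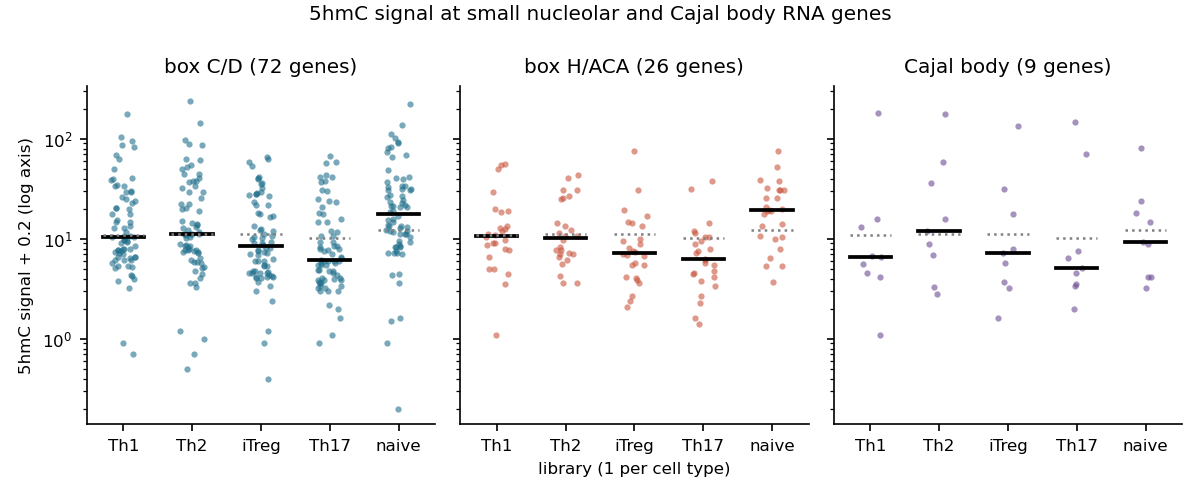
5hmC signal plus 0.2 (log axis) at each box C/D, box H/ACA and Cajal body RNA gene in the 5 libraries, 1 per cell type. Black bars are class medians and dotted grey bars the median of all gene areas: the box C/D and H/ACA medians stand above the dotted bar in naive cells (17.5 and 19.05 against 12) and below it in Th17 cells (5.9 and 6.05 against 9.9).

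In each library the medians differed more between host groups than between classes. Members in ribosomal protein genes had medians of 14.4 in Th1, 18.8 in Th2, 16.3 in iTreg, 9.2 in Th17 and 30.5 in naive cells. Members in Snhg genes and Gas5 had 10.9, 9.5, 7.2, 5.3 and 14.7 in the same order. The 8 members with no host area had 4.2, 5.75, 4.25, 4.05 and 5.25, and so lay low in every library. They include Snord118, the U8 RNA needed for the large ribosomal subunit, which had 17.5 in Th1, 21.9 in Th2, 39.4 in iTreg, 20.5 in Th17 and 20.5 in naive cells. Snord118 and Scarna17 lay above the rest of these 8 in every library. Snord13, the U13 RNA, had 4.1, 3.4, 4.5, 2 and 4.3.

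The members of the imprinted Prader-Willi region, brain-expressed from the paternal chromosome, were mostly low. Snord116l1 had 0.7 in Th1, 0.5 in Th2, 0.7 in iTreg, 0.7 in Th17 and 1.4 in naive cells, and Snord116l2 had 0.5, 0.3, 0.2, 2.8 and 0. Snord64 had 3.6, 0.8, 3.2, 1.4 and 1.3. The input values of the first 2 were 0.2 and 0.1, and that of Snord64 was 0.4, the 3 lowest among the members and the only 3 under 0.5. The low values at these 3 genes and low input coverage cannot be told apart. Snord116 itself, with an input of 1.7, had 5hmC of 5, 7.5, 7.5, 5.8 and 3.4 in the same order, level with the median of all members in iTreg and below it in the other 4 libraries.

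The comparison of differentiated with naive cells asks whether 5hmC at these genes moves with T helper differentiation. The naive library was the highest of the 5 for 51 members (47.7%, against 37.6% of all gene areas and 26.1% of microRNA genes). Th2 was highest for 19 (17.8%, against 16.1% of all gene areas), Th1 for 18 (16.8%, against 13.6%), iTreg for 9 (8.41%, against 15.1%) and Th17 for 8 (7.48%, against 14.2%). The lowest library was Th17 for 53 members (49.5%, against 31.9% of all gene areas) and iTreg for 23 (21.5%, against 13.2%). In 2 members the highest value was tied.

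Counts used a log2 difference of at least 1 on the log2(signal + 0.2) scale, which is 2-fold and understates changes at low areas. A filter on low signal (a mean of at least 3.3 over the 10 5hmC and 5mC libraries) was passed by 87 of the 107 members. Of these 87, 31 were at least 2-fold lower in Th1 than in naive cells (16.1% of all filtered gene areas were), 34 in Th2 (14.8%), 45 in iTreg (14.8%) and 57 in Th17 (25.6%). At least 2-fold higher were 9 in Th1 (4.35%), 12 in Th2 (4.86%), 6 in iTreg (4.54%) and 3 in Th17 (4.66%). Averaged over the 4 libraries, 36 were lower (16%) and 3 higher (2.95%).

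Over all 107 members without the filter, 35 were at least 2-fold lower in Th1 (32.7%, against 15.4% of all gene areas). The same held for 37 in Th2 (34.6% against 14.8%), 52 in iTreg (48.6% against 14.4%) and 66 in Th17 cells (61.7% against 23.5%). At least 2-fold higher were 12 in Th1 (11.2% against 7.38%), 15 in Th2 (14% against 7.5%), 9 in iTreg (8.41% against 7.36%) and 4 in Th17 cells (3.74% against 7.29%). For the average of the 4 libraries the counts were 40 lower (14.6% of all gene areas) and 4 higher (4.91%). The median log2 differences of members were -0.51 in Th1, -0.58 in Th2, -0.93 in iTreg and -1.28 in Th17, against -0.17, -0.14, -0.15 and -0.26 over all gene areas.

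Members are far shorter than the typical gene area, so other short areas were set beside them. Among microRNA genes 23.7% in Th1, 21.8% in Th2, 21.1% in iTreg and 30.6% in Th17 were at least 2-fold lower than in naive cells. Among 791 other short areas (at most 500 bases) nested in a longer gene these shares were 27.4%, 29.6%, 26% and 34%. These areas had a median of 292 bases, against 81 for members, so they are not matched in length. MicroRNA genes were not left out of them, so both sets can share areas. For these lower values the gap between members and both sets was smaller in Th1 and Th2 than in iTreg and Th17. At least 2-fold higher than in naive cells were 19.7% of microRNA genes in Th1, 19% in Th2, 19.2% in iTreg and 14.5% in Th17. Among the other short nested areas these shares were 16.1%, 15.3%, 15.3% and 13.7%. The members' shares of higher values lay below those of both sets in each library. The 4 comparisons share the 1 naive library, so they are not independent of each other.

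**Figure D2:**
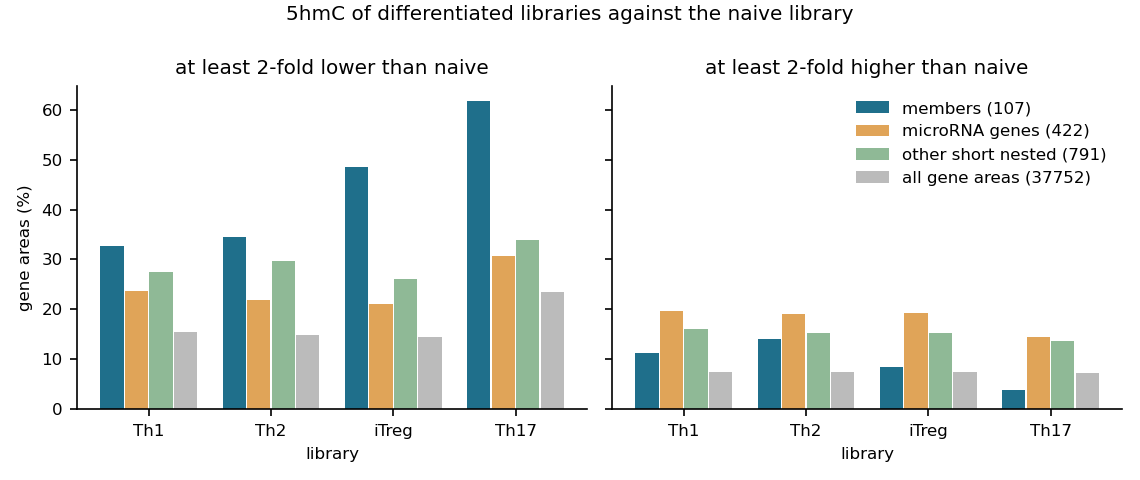
Share of gene areas (%) whose 5hmC was at least 2-fold lower (left) or higher (right) in each differentiated library than in the naive library, for the 107 members, 422 microRNA genes, 791 other short nested areas and all 37752 gene areas. The members' bars for lower values run from 32.7% in Th1 to 61.7% in Th17 and stand highest in each library. The other short nested areas can include microRNA genes.

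The shift touched box C/D and H/ACA genes alike. In Th17, 45 of 72 box C/D genes and 18 of 26 box H/ACA genes were at least 2-fold lower, with median log2 differences of -1.27 and -1.45. Of the 9 Cajal body RNA genes 3 were lower and 1 higher in Th17, and in Th2 their median difference was 0, with 3 higher and 1 lower. Scaling the libraries by median ratios moved the median of all gene areas up by 0.19 in Th1, 0.15 in Th2, 0.16 in iTreg and 0.30 in Th17 on the log2 scale. With it 24 of the 87 members were at least 2-fold lower in Th1 (10.7% of filtered gene areas were), 27 in Th2 (10.7%), 44 in iTreg (10.3%) and 47 in Th17 (16.9%). At least 2-fold higher were 12 in Th1 (6.46%), 13 in Th2 (6.83%), 8 in iTreg (6.62%) and 5 in Th17 (9.42%).

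In 19 members (17.8%) naive 5hmC exceeded every other library at least 2-fold, against 5.28% of all gene areas, 9% of microRNA genes and 11.8% of other short nested areas. Snord1b (chr11:116535460-116535536, plus strand), a box C/D RNA in 1810032O08Rik, had 15.2 in Th1, 11 in Th2, 7.9 in iTreg, 8.3 in Th17 and 92.7 in naive cells. Its naive value stood far above the rest, while Snord1a, next to it in the same host, had 14.5, 8.3, 12.3, 8.3 and 13 and did not share it. Snora70, in Rpl10, had 6.4, 3.4, 5.3, 7.4 and 32.2. Snora31, in Tpt1, had 13.3, 13.2, 16.7, 5.5 and 52.5. Snora28, in Eif5, had 9.5, 7.5, 6.7, 6.1 and 37.6. These genes were picked for a naive value above every other library, each cell type being 1 library.

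The host areas moved the same way. Averaged over Th1, Th2, iTreg and Th17, 71 of the 78 host areas were below naive, 25 at least 2-fold, and 0 were at least 2-fold above. Of all gene areas 22291 of 37752 were below naive in this average, 14.6% at least 2-fold, and 4.91% were at least 2-fold above. The median log2 difference was -0.84 over the 99 members with a host and -0.85 over the host areas. Member and host differences had a Spearman rho of 0.66 over 99 members, a description only, since member and host share DNA, libraries and, for 17 hosts, several members. Eef2, the elongation factor that moves the ribosome along the messenger RNA, had 41.2 in Th1, 39.2 in Th2, 28.2 in iTreg, 16.9 in Th17 and 84.9 in naive cells.

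**Figure D3:**
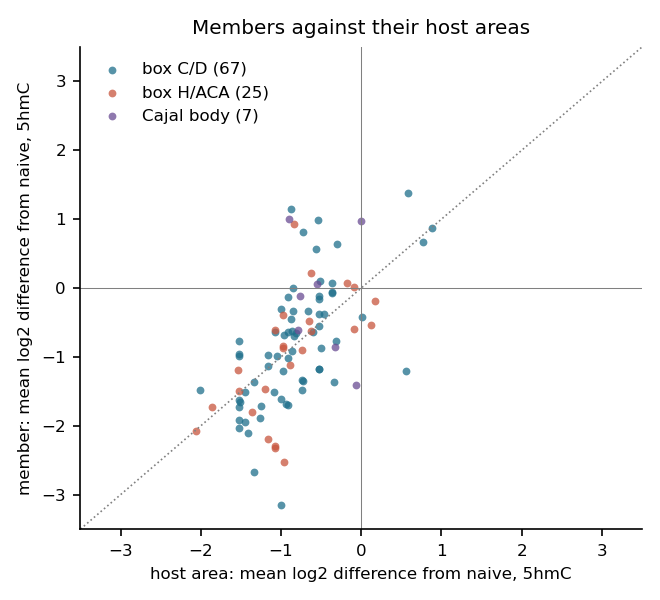
Mean log2 difference from naive in 5hmC over Th1, Th2, iTreg and Th17, for each member (vertical axis) against its host area (horizontal axis), coloured by class, with the dotted line of equality. Most points lie left of and below 0, and the median is -0.84 for the 99 members and -0.85 for the 78 host areas.

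The 4 Rpl13a RNAs guide ribosomal RNA methylation, and Snord32a, Snord33 and Snord35a are known in mouse for a role in the response to lipid stress. Snord35a had 5hmC of 29.4 in Th1, 88.9 in Th2, 12 in iTreg, 57 in Th17 and 138.4 in naive cells. Snord34 had 14.4, 19.5, 53, 10.6 and 82.4, and Snord33 had 39.1, 96.9, 23, 14.5 and 65.1. Snord32a had 94, 52.5, 35.8, 43.1 and 90. Within 1 host the highest library was thus naive for Snord35a and Snord34, Th2 for Snord33 and Th1 for Snord32a. The Rpl13a area as a whole had 28.9 in Th1, 33.6 in Th2, 25 in iTreg, 24 in Th17 and 79.9 in naive cells. IgG was 1.2 at each of the 4 members and at Rpl13a.

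Several members were high in a single library. A value that exceeds every other library at least 2-fold was chosen as a condition after the values were seen. In 5hmC it was met by 5 members in Th1 (1.1% of all gene areas met it there), 9 in Th2 (1.06%), 2 in iTreg (1.09%), 3 in Th17 (1.02%) and the 19 in naive cells. In Th2 this was 8.41% of members and 6.87% of microRNA genes. In Th1 it was 4.67% and 4.27%, in iTreg 1.87% and 6.16%, and in Th17 2.8% and 3.79%. Of these 38 members 36 had a host, and the host met the same condition in 6 and was highest in the same library in 20. Most of this came from the naive library, where 5 of the 6 hosts met the condition, with 1 in Th2. Outside naive cells the host was highest in the same library only for Snord7 in Th2 and Snord111 in Th1.

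Scarna6 (chr1:89681145-89681392, plus strand), the U88 scaRNA, had 4.4 in Th1, 58.5 in Th2, 3.5 in iTreg, 4.9 in Th17 and 4 in naive cells. Atg16l1, its host and an autophagy gene, had 9.4, 9.7, 11.8, 10.1 and 19.2, with no peak in Th2. Snord89 (chr1:39605591-39605684, minus strand) had 81.9, 237.2, 63, 30.7 and 39.4, the highest 5hmC value of any member, against 23.5 in Th2 for its host area LOC100503777. Snord53 (chr17:71990228-71990295, plus strand), in the ribosome assembly gene Wdr43, had 24.7, 143.6, 58.8, 23.3 and 21, against 22.5 in Th2 for Wdr43. Snord65 had 7.1, 61.3, 4.6, 3.5 and 18.6, while Snord49b and Snord49a in the same host had 11.4 and 11.1 in Th2.

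In the other libraries Snord111, in the splicing factor gene Sf3b3, had 68.6 in Th1, 5.7 in Th2, 6.9 in iTreg, 4.6 in Th17 and 18.3 in naive cells. Snora23, in the importin gene Ipo7, had 29.1, 24.8, 75.8, 31.1 and 18.8. Scarna17, with no host area, had 15.6, 15.5, 17.5, 70.3 and 24, and Snora17, in Snhg7, had 4.8, 6.9, 5.3, 38 and 13.8. In each of these genes 1 library stood apart from the other 4, and no second library was available to repeat it.

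**Figure D4:**
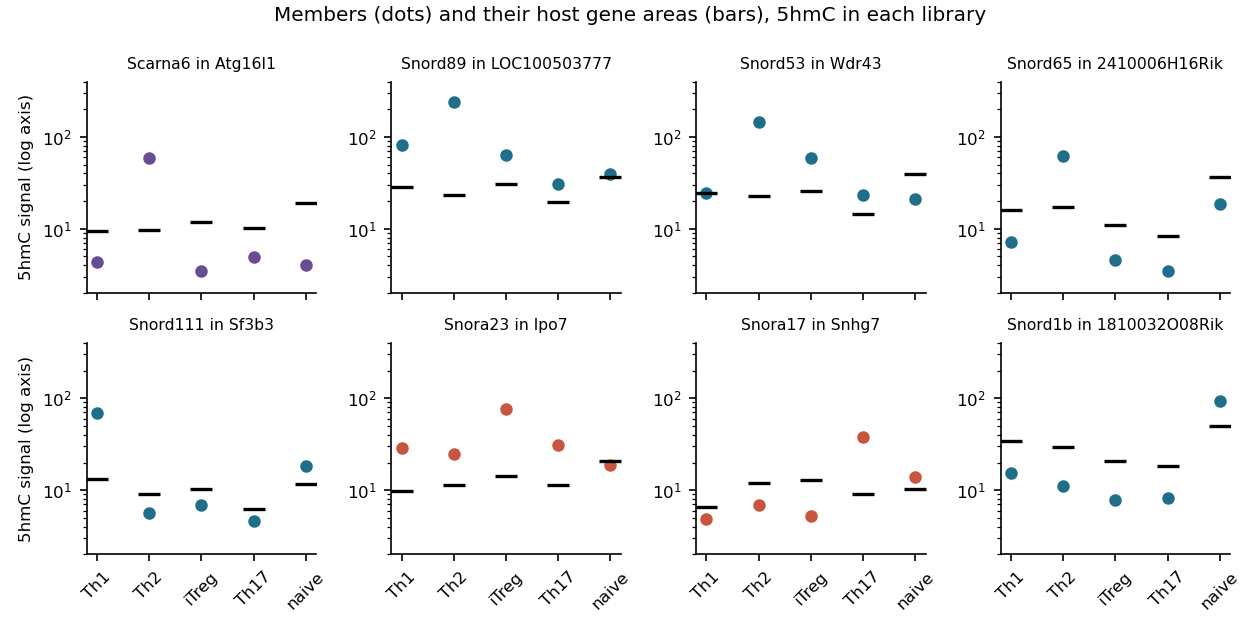
5hmC signal (log axis) in the 5 libraries at 8 members that met the condition (dots, coloured by class as above) and at their host areas (bars). Scarna6, Snord89, Snord53 and Snord65 stand out in Th2, Snord111 in Th1, Snora23 in iTreg, Snora17 in Th17 and Snord1b in naive cells, while the host bars stay within a narrower range.

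Members lay mostly below their hosts, but less far below than other short nested areas. In the mean of 5 libraries the log2 difference of member minus host in 5hmC had a median of -0.50 over 99 members and -1.0 over 791 other short nested areas. At least 2-fold below the host were 26 members (26.3%, against 50.1%), and at least 2-fold above were 4 (4.04%, against 2.78%). By class the median was -0.43 for 67 box C/D, -0.56 for 25 box H/ACA and -1.17 for 7 Cajal body RNA genes. Since host areas are longer and include the member, no test over members was made. The other short nested areas had a median of 292 bases, against 81 for all members, and the part of length in the gap was not tested.

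The 4 above their host were Scarna9, Snord89, Snord37 and Snora23. Scarna9, which in human guides modification of U2 spliceosomal RNA, lies at chr9:15130732-15130773, minus strand, in 5830418K08Rik (Cep295 in RefSeq, a centriole gene). It had 5hmC of 180 in Th1, 177.5 in Th2, 133.4 in iTreg, 146.2 in Th17 and 80.2 in naive cells, with an input of 1.4 and IgG at 0. The next highest value of a Cajal body RNA gene was 70.3, at Scarna17, and the naive value of Scarna9 was its lowest. Its host had 13.8, 11.1, 8.4, 7.6 and 10, and the log2 difference of member minus host was 3.77 ± 0.48 (SD over 5 libraries). Farthest below their hosts were Snord93 at -4.10 ± 1.11, in 2700038G22Rik, and Snord11 at -2.60 ± 0.88, in Nop58.

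In 5mC the median difference from the host was -0.35 for members and -0.57 for other short nested areas. At least 2-fold below were 6 members (6.06%, against 21.5%), and above were 3 (3.03%, against 5.69%): Snord37, Scarna9 and Snord35a. At a pseudocount of 1 the areas at least 2-fold below their host were 0 of the members and 0 of the other short nested areas, so the gap between the sets was not seen there, and the medians were -0.16 and -0.19. Snord35a had 5mC of 2.8 in Th1, 3.6 in Th2, 1.6 in iTreg, 2.4 in Th17 and 1.5 in naive cells, against 0.8, 0.8, 0.7, 1.2 and 0.7 for Rpl13a, and so lay above its host in each library.

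The 5mC signal at members was low and even. Their median was 0.5 in Th1 and 0.4 in each of Th2, iTreg, Th17 and naive cells, against 0.7, 0.6, 0.6, 0.6 and 0.7 over all gene areas. Class medians lay between 0.4 and 0.5 in every library. Values are rounded to 1 decimal, so a step of rounding is a large share of such a value.

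Against naive cells, the median log2 difference in 5mC over all members was 0.19 in Th1 and 0 in Th2, iTreg and Th17. Of the 87 filtered members 16 were at least 2-fold higher in Th1 (2.22% of filtered gene areas were), 10 in Th2 (1.56%), 9 in iTreg (1.33%) and 4 in Th17 (1.5%). At least 2-fold lower were 9 in Th1 (2.23%), 8 in Th2 (3.13%), 11 in iTreg (4.63%) and 13 in Th17 (3.98%). For the average of the 4 libraries 6 were higher (0.802%) and 10 lower (2.06%), and with median-ratio scaling 8 were higher (1.03%) and 8 lower (1.42%). Over all 107 members, 18 were at least 2-fold higher in 5mC in Th1 (16.8%, against 2.95% of all gene areas), 10 in Th2 (9.35% against 2.17%), 9 in iTreg (8.41% against 1.84%) and 6 in Th17 (5.61% against 2.14%). At least 2-fold lower were 11 in Th1 (10.3% against 3.48%), 9 in Th2 (8.41% against 4.63%), 14 in iTreg (13.1% against 6.43%) and 15 in Th17 (14% against 5.49%). For the average 7 were higher (1.06% of all gene areas) and 11 lower (3.17%), so that both directions were more frequent at members than over all gene areas. Of microRNA genes 15.9%, 14.2%, 11.4% and 10.7% were at least 2-fold higher in these libraries and 14.5%, 14.7%, 20.9% and 19.9% at least 2-fold lower, shares near or above those of the members.

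In 5mC the condition of a single library exceeding every other at least 2-fold was met at 8 members in Th1 (0.644% of all gene areas), 4 in Th2 (0.44%), 4 in iTreg (0.318%), 2 in Th17 (0.381%) and 5 in naive cells (0.895%). As shares these were 7.48%, 3.74%, 3.74%, 1.87% and 4.67% of members, beside 4.27%, 3.79%, 2.13%, 3.79% and 6.16% of microRNA genes, so that the share of members was higher in Th1 and iTreg and lower in Th2, Th17 and naive cells. Of these 23 members 22 had a host, and 0 of the hosts met the same condition. Snord90, in Rc3h2, had 5mC of 2.6 in Th1, 0.2 in Th2, 0.5 in iTreg, 0.4 in Th17 and 0.4 in naive cells. Snord23, in Gltscr2 (Nop53 in RefSeq), had 4.5, 0.8, 1.3, 1 and 0.8.

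Snord37 (chr10:80641705-80641757, plus strand), which guides ribosomal RNA methylation, was the exception in 5mC. Its 5hmC was 104.5 in Th1, 86.1 in Th2, 41.3 in iTreg, 67.7 in Th17 and 224.4 in naive cells, highest in naive like its host Eef2. Its 5mC was 45.2, 30.5, 16.6, 38.4 and 31 in the same order, while every other member stayed at 4.5 or less in every library. Eef2 had 5mC of 8.4, 7, 6.5, 8.7 and 8.4, also far above the median gene area. The log2 difference of Snord37 from Eef2 was 1.28 ± 0.52 in 5hmC and 1.96 ± 0.40 in 5mC (SD over 5 libraries). The input at Snord37 was 10.4, the highest of the members, and 5.9 at Eef2, with IgG at 0.6 and 1. The part of the high input in these values was not tested.

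Over the 5 cell types, 5hmC and 5mC were compared with limma, after subtracting from each library its median over gene areas, and with cell type as a block. A positive value means that a gene area stood higher among the areas of the 5hmC libraries than among those of the 5mC libraries. Of the 87 members tested 23 were higher (12.9% of the 28314 gene areas tested were) and 3 were lower (6% of gene areas). The median log2 difference was 0.56 for members and 0.21 for all gene areas tested. At a pseudocount of 0.5 these medians were 0.39 and 0.19, and at 1 they were 0.26 and 0.19, so the gap shrank. At these pseudocounts 21 and 20 members were higher (3612 and 3718 of 28314 gene areas) and 3 were lower at each (1274 and 857). In the main fit 38 of 87 members had an unadjusted p under 0.05, a smaller share than the 13898 of 28314 gene areas that did. By class 19 of 59 box C/D genes were higher and 3 lower, 2 of 21 box H/ACA genes were higher and 0 lower, and 2 of 7 Cajal body RNA genes were higher and 0 lower. Members in ribosomal protein genes gave 9 of the 23, of 26 tested. The filter is a mean over both antibodies in which 5hmC, the larger signal, weighs most, so areas high in 5hmC passed it more readily, and the counts over the members that passed are a description. Without the filter the median of all gene areas was -0.02 and that of members 0.28, and 22 of 107 members were higher (9.64% of gene areas) and 8 lower (16.1%). With the naive libraries left out, 18 of 87 were higher (3497 of 28314 gene areas were) and 8 lower (1802 of 28314). In that fit members were lower more often than gene areas, the reverse of the main fit. Without the cell types labelled iTreg and Th17, 25 were higher (3524 of 28314 gene areas) and 1 lower (1599 of 28314).

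Box C/D genes gave the highest values. Snord12 (chr2:166890792-166890857, plus strand), in 1500012F01Rik (Zfas1 in RefSeq, a non-coding snoRNA host), had 5hmC of 178.3 in Th1, 62.8 in Th2, 27 in iTreg, 24.6 in Th17 and 80.6 in naive cells. Its 5mC was 0.5, 0.2, 0.2, 0.3 and 0.2, and the log2 difference was 3.21 ± 0.34 (SE; limma, adjusted p = 0.000328). Snord17, in Snx5, reached 2.70 ± 0.43 and Snord32a 2.68 ± 0.28 (limma, adjusted p = 0.00159 and 0.000298). In these 3 genes 5hmC was high and 5mC stayed at 0.7 or less in every library.

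Members that act in cutting of the ribosomal RNA precursor were partly higher and partly not past the test. Snord14c (U14), in the chaperone gene Hspa8, had a difference of 1.85 ± 0.22 and Snord14a, in Rps13, 1.19 ± 0.37 (limma, adjusted p = 0.000499 and 0.0332). Snord14e, also in Hspa8, had 0.56 ± 0.34 and did not pass (limma, adjusted p = 0.215). Snord22 (U22), in Snhg1, had 1.8 ± 0.33 and Snord118 (U8) 1.32 ± 0.20 (limma, adjusted p = 0.0033 and 0.00116). Snora73b (U17), in Snhg3, had 1.47 ± 0.29 and passed, while its neighbour Snora73a had 0.73 ± 0.23, past the p threshold but under 2-fold (limma, adjusted p = 0.00459 and 0.0323). Of the other RNAs in the list chosen for known roles, Snord13 (U13) was under the filter. Snord15b passed at 1.17 ± 0.39, as did Snord47, in Gas5, at 1.39 ± 0.38 (limma, adjusted p = 0.0421 and 0.018). Snora74a at 0.73 ± 0.41, Snora65 at 0.67 ± 0.26 and Snord15a at 0.48 ± 0.26 did not pass (limma, adjusted p = 0.189, 0.0673 and 0.174).

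Of the Cajal body RNA genes, Scarna9 had 1.90 ± 0.40 and Scarna17 1.21 ± 0.39 (limma, adjusted p = 0.00617 and 0.0376). The other 5 tested did not pass, from -1.08 ± 0.52 at Scarna10 to 0.34 ± 0.44 at Scarna13 (limma, adjusted p = 0.131 and 0.571), with Scarna2, Scarna3b and Scarna6 between, and Scarna3a and Scarna8 were under the filter.

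The 3 members lower in this comparison still had more 5hmC than 5mC signal as deposited, since the centring sets each antibody to its own median. Snord37 was lowest at -2.20 ± 0.27, beside -1.52 ± 0.29 for its host Eef2 (limma, adjusted p = 0.000557 and 0.00352). Snord23 had -1.70 ± 0.39 and Snord66, in the initiation factor gene Eif4g1, -1.04 ± 0.28 (limma, adjusted p = 0.0086 and 0.0184). Without centring every one of the 87 members was higher and 0 were lower. The same held for 28244 of all 28314 gene areas tested, with 3 lower, so this count is not particular to the members.

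**Figure D5:**
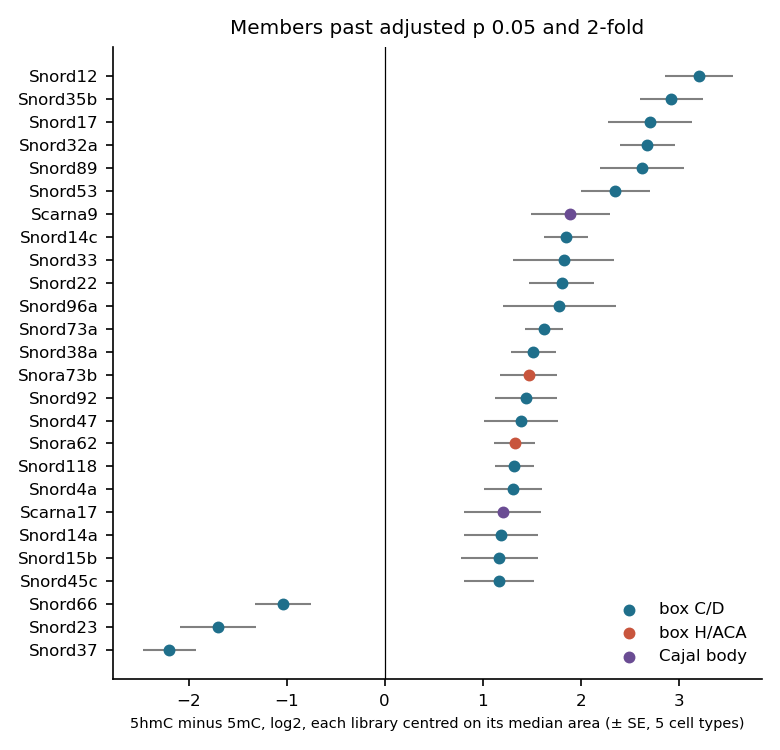
Log2 difference of 5hmC minus 5mC after centring every library on its own median, with the limma SE from 5 cell types. Shown are the 26 members past adjusted p 0.05 and 2-fold, coloured by class. Values run from -2.20 for Snord37 to 3.21 for Snord12, and 19 of the 23 on the right are box C/D genes.

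The genes for the proteins that carry snoRNAs were described as a list of 22: the core proteins of both particles and their assembly and Cajal body factors. Of the 22, 0 were higher in 5hmC over 5mC (12.9% of gene areas tested were) and 1 was lower (6% of gene areas). The lower gene was Nolc1, at -1.02 ± 0.22 (limma, adjusted p = 0.00708). Averaged over the differentiated libraries, 5hmC was below naive at 21 of 22 (22291 of all 37752 gene areas were), and 6 were at least 2-fold lower (16% of filtered gene areas were). Their median log2 difference was -0.73, against -0.27 over the filtered gene areas. Fbl, the methyltransferase of box C/D particles, had 18.7 in Th1, 24.4 in Th2, 28.1 in iTreg, 19.8 in Th17 and 41.7 in naive cells. Dkc1, the pseudouridine synthase of box H/ACA particles, had 19.9, 17.3, 15.4, 13.1 and 18.5, with no such gap.

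The controls bear on a few members. IgG was 0 at 40 members (37.4%, against 19.5% of all gene areas) and reached 5 at 4 (3.74%, against 2.05%). These were Scarna2 with 21.6, Snord4a with 17.3, Snord88a with 13 and Snord73a with 6.4. At Scarna2, Snord4a and Snord88a the Th17 5hmC value was 6.3, 11.9 and 3.2, below IgG of the same cells. Snord4a and Snord73a are among the 23 members higher in 5hmC over 5mC, and the part of the IgG signal in that was not tested. In all, IgG was at least as high as Th17 5hmC at 5 members (4.67%, against 5.25% of all gene areas). Of 9 pairs of neighbouring members within 1000 bases, 8 had the same IgG value and 19 of 45 pairs of 5mC values were equal, whereas 3 of the 5hmC pairs were. How often members farther apart share a value was not tested.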

How the data were processed

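The authors deposited a signal value per gene area with 1 decimal. The submitters' processing notes name CASAVA 1.7.0 and mouse build mm9. How reads were aligned, counted and scaled is not given in the sources used here, so depth is unknown. Sample numbers in the titles tied columns to libraries, and values were used as deposited.

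All 37752 rows were kept. Log2 values took a pseudocount of 0.2, the 5th percentile of non-zero values. The filter kept 28314 areas. The limma fit of 5hmC against 5mC (version 3.58.1, under R 4.3.3; trend, Benjamini-Hochberg adjustment over the kept areas, adjusted p under 0.05 and 2-fold) was tested on simulated data. Its spread is that of the 5hmC minus 5mC difference over the cell types, which limma draws toward the spread of all kept areas. Differences from naive and from hosts had no test and used 2-fold as a rule of size. Python 3.11.15, pandas 2.3.3, numpy 2.4.6 and matplotlib 3.10.9 were used.

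The members and lists were chosen with earlier results of these data known. Members named were taken from the Scarna genes, RNAs of known processing roles, those in Gas5, Snhg1 and Rpl13a, and the extremes of each comparison; Snord4a, Snord49a, Snord49b, Snord65, Snord73a, Snord88a, Snord90, Snord92, Snord123, Snora17 and Snora28 were named after their values were seen. RefSeq matched all 107 gene IDs, and its GRCm38.p6 windows were joined by gene ID, not by position. Sequence features had been planned on windows of the members, and host windows were used instead. Alternatives covered scaling, pseudocount, filter, fold, host choice and each cell type left out. A few results are not reported here.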

Additional observations from a re-analysis of the deposited data

Results flagged for a closer look

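The box C/D median of 5mC in Th1 cells, 0.5, stood apart from the other 4 libraries, which all had 0.4. With values rounded to 1 decimal this is a single rounding step. Of 213 sets of 5 libraries for single members 60 had a library apart by the same measure, where chance gives about 1 in 20 for normally distributed values. These values are skewed or rounded, and their own chance rate was not tested.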

How the results depend on the processing

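Of 208 alternative values, most of them counts in 1 direction, which cannot change sign, 157 stayed close to the main value (within 1.5 times for counts) and 51 moved further.
For 5hmC over 5mC (23 higher, 3 lower), values not centred gave 87 and 0 (28244 and 3 of all 28314 gene areas tested). No filter gave 8 lower (16.1% of gene areas). Leaving out the cell types labelled iTreg and Th17 gave 1 lower (1599 of 28314 gene areas). Leaving out each cell type in turn gave 17 to 22 higher (3497 to 3728 of 28314 gene areas) and 2 to 8 lower (1582 to 1802). With no replicate block the fit gave 22 higher (3658 of 28314 gene areas) and 4 lower (1686).
For 5hmC against naive, median-ratio scaling gave 5 higher in Th17 (9.42% of filtered gene areas) and 6 in the mean of the 4 libraries (5.28%). At 3-fold Th1 had 3 higher and 14 lower, Th2 7 and 16, iTreg 3 and 28, Th17 0 and 35, and the mean 0 and 21. Over filtered gene areas the 3-fold shares higher were 1.29%, 1.39%, 1.26%, 1.27% and 0.572% in the same order. The shares lower were 3.95%, 3.83%, 3.25%, 10.3% and 3.37%.
For 5mC against naive, a pseudocount of 0.5 gave 2 higher in the mean (0.258% of filtered gene areas). A pseudocount of 1 gave 8 higher and 3 lower in Th1, 0 higher and 4 lower in Th2 (10 and 8 at 0.2), 4 higher and 3 lower in iTreg (9 and 11 at 0.2), 4 lower in Th17, and 1 and 2 in the mean. Over filtered gene areas these shares were 0.381% and 0.42% in Th1, 0.261% and 0.551% in Th2, and 0.212% and 0.904% in iTreg. They were 0.646% lower in Th17, and 0.0812% and 0.314% in the mean. At 3-fold the counts were 10 and 3 in Th1, 4 higher and 6 lower in Th2, 6 lower in iTreg, 7 lower in Th17, and 2 and 4 in the mean. Over filtered gene areas the 3-fold shares were 0.576% and 0.689% in Th1, and 0.456% and 0.964% in Th2. They were 1.39% lower in iTreg, 1.09% lower in Th17, and 0.166% and 0.427% in the mean. The balance of higher and lower 5mC thus turned in Th2 and, at a pseudocount of 1, in iTreg.
For single-library values, 3-fold gave 2, 4, 1, 1 and 5 members in 5hmC and 3, 0, 1, 1 and 1 in 5mC, and a pseudocount of 1 gave 2, 0, 1, 0 and 1 in 5mC (Th1, Th2, iTreg, Th17, naive). Over all gene areas the 3-fold shares were 0.347%, 0.368%, 0.4%, 0.35% and 0.75% in 5hmC. In 5mC they were 0.117%, 0.0954%, 0.045%, 0.0795% and 0.185% at 3-fold. At a pseudocount of 1 the 5mC shares were 0.0715%, 0.0371%, 0.0185%, 0.0371% and 0.0768%. The 6 members 2-fold below their host in 5mC became 0 at pseudocounts of 0.5 and 1. The other short nested areas below theirs became 2 and 0 of 791. Counts at a higher fold are smaller by construction; for the rest the cause was not tested. Values rounded to 1 decimal limit the 5mC ratios.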
